A study of Saccharomyces cerevisiae with 6 samples.

Results

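The genes described here are 41 Saccharomyces cerevisiae genes of cytosolic translation, taken from a list of standard gene names: initiation factors, elongation factors, termination factors and proteins bound to the ribosome. All 41 matched a feature of the array by gene symbol, among 6362 genes measured. Translation starts when eIF4F, a complex of the cap-binding protein eIF4E, the scaffold eIF4G and the RNA helicase eIF4A, brings a capped mRNA to the small ribosomal subunit, which carries eIF1, eIF1A, eIF3, eIF5 and the eIF2 complex with initiator tRNA. eIF2B recharges eIF2 with GTP, and its inhibition by phosphorylated eIF2 is how amino acid starvation lowers initiation in yeast. eEF1A and eEF2 then drive elongation together with eEF3, an ATPase that fungi need, and the release factors eRF1 and eRF3 end it. In growing yeast many of these genes are among the most strongly transcribed, and they are known to be regulated along with the ribosomal protein genes.

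Total RNA of 3 haploid strains was compared on 6 arrays with 2 colours, 2 biological replicate arrays for each strain. All strains are of mating type alpha and carry his3, leu2, lys2 and ura3 mutations. The parental strain was BY4742, the erg6 deletion strain carried erg6::kanMX4 and so lacked the sterol C-24 methyltransferase, and the snq2 deletion strain carried snq2::kanMX and lacked a drug exporter of the plasma membrane. Each array set cells exposed for 4 h to 0.2 mM of compound 089 (Cy5) against untreated cells of the same strain (Cy3), both shaken at 28 °C in rich medium with 2% glucose at pH 4.8. The labels name 089 as a bicyclic dioxa-aza-octane carboxamide and mention no solvent for the untreated cells. Every value below is a ratio of treated over untreated on the log2 scale. That direction follows from the titles and dyes and is likely, but neither it nor the log base is stated. Were the direction reversed, all signs below would change. Treated cells carried Cy5 on every array, so a dye effect of a gene stays in each response. RNA came from whole cultures, so fewer cells expressing a gene and less RNA per cell cannot be told apart.

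The medians of all 7045 features lay between -0.055 and 0.011 on the 6 arrays, and over all genes the correlation of the replicates (Pearson r) was 0.901 in parental, 0.713 in erg6 deletion and 0.916 in snq2 deletion cells. Over the 41 translation factor genes the corresponding values were 0.959, 0.824 and 0.949. Between the replicates of the erg6 deletion strain a translation factor gene differed by a median of 0.25, against 0.14 in the parental and 0.20 in the snq2 deletion strain. The deleted genes do not check the labels, since each array compared a strain with itself. ERG6 stood at -0.55, -0.75 and 0.27 in the parental, erg6 deletion and snq2 deletion strains, and SNQ2 at -0.35, 0.16 and 0.12. ERG6 passed as lower in the erg6 deletion strain (adjusted p = 0.00347), although that strain lacks the gene. SNQ2 did not pass in the snq2 deletion strain (adjusted p = 0.308). What the ERG6 spot measured in the strain without the gene was not tested. Spots without a gene also passed the test often. In the parental response 32.1% of the 539 empty spots and 68.1% of the 144 Blank spots did so, in the erg6 deletion response 71.2% and 63.9%, and in the snq2 deletion response 30.1% and 70.1%. Medians of the empty spots were 0.70, 2.11 and 0.55 in the parental, erg6 deletion and snq2 deletion responses, and of the Blank spots -0.29, -0.27 and -0.22. In the erg6 deletion response the median empty spot thus lay above all 41 translation factor genes, the highest of which was 1.86. What sets the empty and Blank spots apart from 0 was not tested. The central 95% of these spots ran from -1.36 to 2.49, from -1.87 to 3.57 and from -1.43 to 2.00 in the 3 responses. Of the translation factor genes, GCD6, CAM1 and RLI1 lay outside that range in the parental strain. TIF1, TIF2, PAB1, NIP1, SUI3 and YEF3 did so in the snq2 deletion strain, and 0 of 41 in the erg6 deletion strain, where all 25 calls lay within it.

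Under 089 more translation factor genes fell than rose in the parental and snq2 deletion strains, and more rose than fell in the erg6 deletion strain. In snq2 deletion cells 27 genes were lower after treatment and 4 higher at an adjusted p of 0.05, while 10 did not pass, and the median was -0.65. In erg6 deletion cells the balance was the other way, with 18 higher, 7 lower and 16 that did not pass, and a median of 0.37. Parental cells had 15 lower, 8 higher and 18 that did not pass, and a median of -0.23. Over all genes tested the medians were -0.03, -0.11 and -0.02. The medians of the translation factor genes on single arrays were -0.27 and -0.25 in parental, 0.16 and 0.43 in erg6 deletion and -0.54 and -0.65 in snq2 deletion cells, so the medians of the 3 strains did not overlap.

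Calls were common across the whole array, and the counts are read against that. Pairs of closely related genes, uncertain as separate measurements, also enter every count as separate genes. Among the erg6 deletion rises, TIF1 and TIF2, TEF1 and TEF2, EFT1 and EFT2, and HYP2 and ANB1 are such pairs. In the snq2 deletion strain 51.5% of all genes passed (26.2% lower, 25.3% higher), against 75.6% of the translation factor genes (65.9% and 9.76%). In the erg6 deletion strain 54.7% of all genes passed (23.2% higher, 31.5% lower), against 61.0% of the translation factor genes (43.9% and 17.1%). There the median gene lay below 0, and centring the arrays turned the split of all calls from 1476 higher and 2002 lower into 1743 higher and 1578 lower, while 20 translation factor genes were then higher and 7 lower. In the parental strain 54% of all genes passed in either direction (26.7% lower, 27.3% higher), against 56.1% of the translation factor genes (36.6% and 19.5%), a share near the background. The parental count dropped from 23 to 15 without parental replicate 2 and the snq2 deletion count from 31 to 18 without replicate 2 of that strain.

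**Figure D1:**
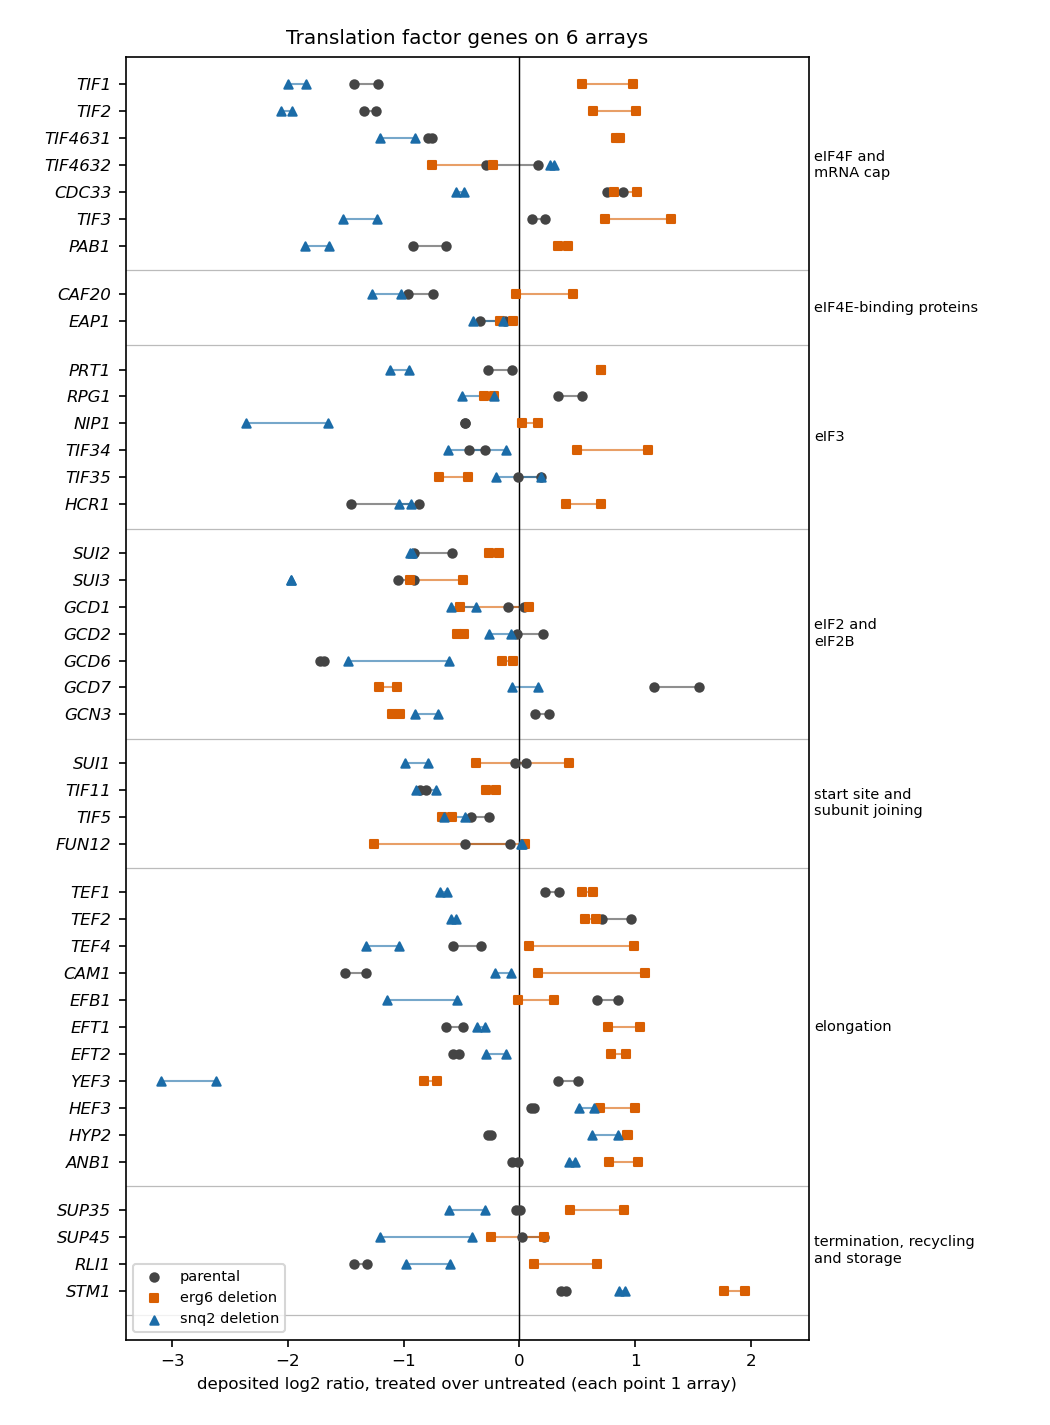
Deposited log2 ratio of treated over untreated cells (horizontal axis) for each of the 41 translation factor genes, grouped by role, with 1 point per array and a line joining the 2 arrays of a strain. Orange squares of the erg6 deletion strain lie to the right of all other points for 24 genes, and blue triangles of the snq2 deletion strain lie to the left of all others for 19.

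The erg6 deletion response was higher than the snq2 deletion response for 27 genes and lower for 2, TIF4632 and GCD7, where 49.6% of all genes passed, 23% higher and 26.5% lower. Against the parental response, the erg6 deletion response was higher for 22 and lower for 6 (56.8% of all genes passed, 25.4% higher and 31.4% lower), and the snq2 deletion response was higher for 4 and lower for 14 (39.2% of all genes, 16.4% higher and 22.8% lower). These last comparisons share the parental arrays. Both erg6 deletion arrays lay above all 4 other arrays for 24 of the 41 genes (58.5%, against 23.5% of all genes), and both snq2 deletion arrays lay below all 4 others for 19 (46.3%, against 18.4%). Against the parental arrays alone, both erg6 deletion arrays were higher for 24 genes (58.5%, against 35.3% of all genes) and both snq2 deletion arrays lower for 25 (61%, against 43.3%).

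A pattern of a rise in the erg6 deletion and a fall in the snq2 deletion strain was held by 12 of the 41 genes (29.3%) and by 5.22% of all genes: TIF1, TIF2, TIF4631, CDC33, TIF3, PAB1, PRT1, HCR1, TEF1, TEF2, EFT1 and SUP35. Over the alternatives to the fit this count ran from 7 to 13 and was lowest without snq2 deletion replicate 2. A fall in the parental and a rise in the erg6 deletion strain was found for TIF1, TIF2, TIF4631, PAB1, HCR1, EFT1 and EFT2, which are 17.1% of the translation factor genes, against 8.36% of all genes. This count of 7 ran from 4 to 9 over the alternatives and was lowest in fits to the strains compared alone. Near-identical pairs, uncertain as separate measurements, enter as separate genes: TIF1 and TIF2 in both counts, TEF1 and TEF2 in the 12, EFT1 and EFT2 in the 7. The 13 genes that fell in both parental and snq2 deletion cells (31.7%, against 12.6%) held 6 of these 7, and those 6 (14.6%, against 2.64%) joined both patterns, a count that ran from 3, in fits to the strains compared alone, to 7 over the alternatives. The opposite order, a rise in parental and a fall in erg6 deletion cells, was shown by GCD7 and YEF3 (4.88%, against 10.1%). Parental and snq2 deletion cells moved in opposite directions for CDC33, RPG1, TEF1, TEF2, EFB1 and YEF3 (14.6%, against 6.4%). Both deletion strains rose for HEF3, HYP2, ANB1 and STM1 (9.76%, against 10.2%) and fell for SUI3, GCN3, TIF5 and YEF3 (9.76%, against 8.52%), shares near the background. A response passed in all 3 strains for 13 genes (31.7%, against 20.8%), a count that dropped to 7 without snq2 deletion replicate 2, and among them SUI3 and TIF5 were lower in each strain (4.88%, against 4.56%) and STM1 was higher in each (2.44%, against 3.43%). TIF4632, EAP1, GCD1 and FUN12 passed in no strain (9.76%, against 15.3%), a count that ran over the alternatives from 2, among them without erg6 deletion replicate 1, to 7 without snq2 deletion replicate 2. Opposite responses in the erg6 deletion and parental strains, with the difference past the threshold and all 3 calls kept under all 15 other fits, were held by 3 genes (7.32%, against 5.91% of all genes), a share near the background. Between the erg6 and snq2 deletion strains 5 genes met the same rule (12.2%, against 2.56%). Described across the 41 genes, the erg6 and snq2 deletion responses correlated at r = 0.18, the parental and snq2 deletion responses at 0.33 and the parental and erg6 deletion responses at -0.15. Over all 6362 genes these values were 0.27, 0.44 and 0.03. Genes that share an array and regulators are not independent points.

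**Figure D2:**
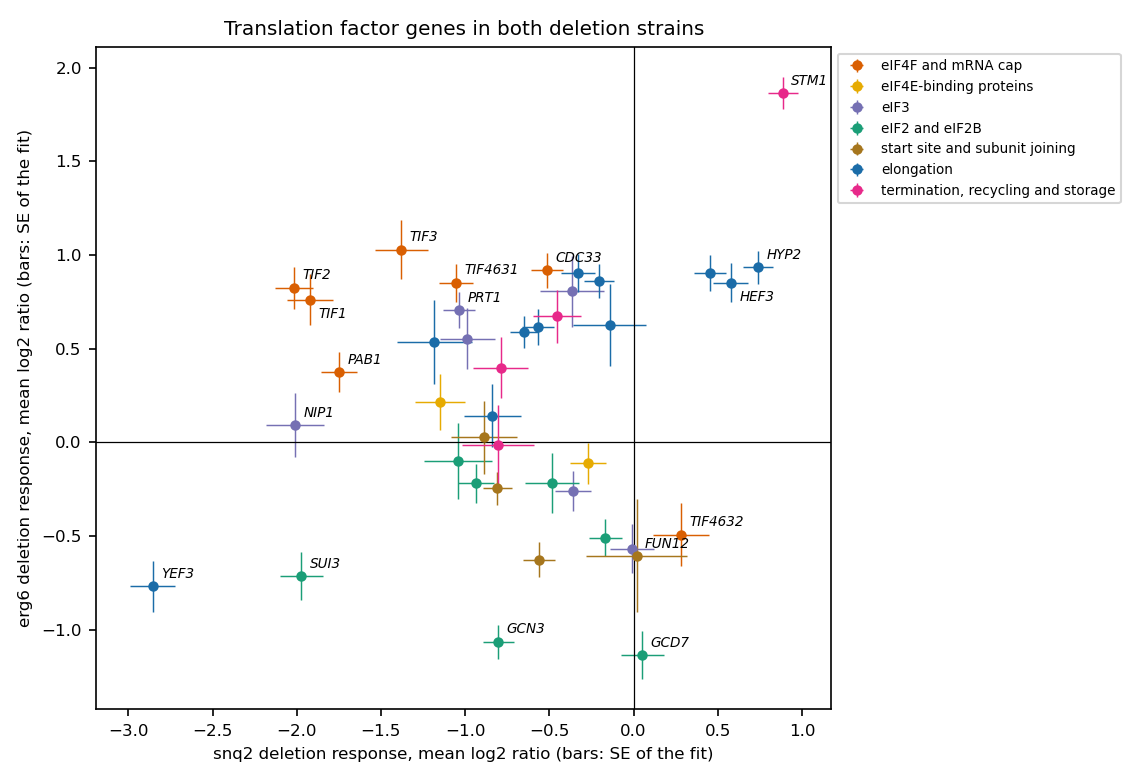
Mean log2 ratio of each translation factor gene in the snq2 deletion strain (horizontal) and the erg6 deletion strain (vertical), with bars for the standard error of the fit over 2 arrays a strain and colours for the role. Most eIF4F genes sit at the upper left, STM1 at 0.89 and 1.86 stands highest, and YEF3 at -2.86 and -0.77 stands at the lower left.

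Among genes of the cap-binding complex and its partners, TIF1, TIF2, TIF4631, TIF3 and PAB1 had separate ranges in the 3 strains, while CDC33 and TIF4632 overlapped between the parental and erg6 deletion strains. Of these 7, 6 rose in the erg6 deletion strain and 6 fell in the snq2 deletion strain, and in the parental strain 4 fell and 1 rose. These were 85.7%, 85.7% and 71.4% past the threshold, against 54.7%, 51.5% and 54% of all genes. TIF1 and TIF2, near-identical and uncertain as separate measurements, enter these counts as separate genes. TIF1, which encodes eIF4A, had ratios of -1.43 and -1.22 in parental, 0.99 and 0.54 in erg6 deletion and -2.00 and -1.84 in snq2 deletion cells. TIF2, a gene for the same eIF4A protein, had -1.34 and -1.24, then 0.64 and 1.01, then -1.97 and -2.06. The 3 strains did not overlap for either gene, with the erg6 deletion arrays above 0 and the others below. For TIF2 the fitted responses were -1.29 ± 0.11 (SE, n = 2 arrays, adjusted p = 0.000574) in parental, 0.82 ± 0.11 (0.00293) in erg6 deletion and -2.02 ± 0.11 (0.000234) in snq2 deletion cells, and the difference between the deletion strains was 2.84 ± 0.16, or 7.17-fold. That difference ranked 19 from the highest among 6362 genes.

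TIF4631, the gene of the main eIF4G scaffold, had -0.79 and -0.75 in parental, 0.87 and 0.83 in erg6 deletion and -0.90 and -1.20 in snq2 deletion cells. The erg6 deletion arrays again stood apart above 0, and the difference from the parental response was 1.62 ± 0.14 (adjusted p = 0.000541). TIF4632, which encodes the second eIF4G, had -0.29 and 0.16, -0.23 and -0.76, and 0.30 and 0.26. Its order was the opposite, with the erg6 deletion strain lowest on average, but no response passed, and its difference between the deletion strains, -0.77 ± 0.24 (adjusted p = 0.0413), was lost under 9 alternatives, among them without erg6 deletion replicate 2, without either snq2 deletion array and with the replicate block (0.0142 to 0.146 over the alternatives).

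TIF3, encoding eIF4B, a stimulator of eIF4A, had 0.11 and 0.22 in parental, 1.31 and 0.74 in erg6 deletion and -1.23 and -1.53 in snq2 deletion cells. PAB1, the poly(A)-binding protein that bridges the mRNA tail to eIF4G, had -0.63 and -0.92, 0.42 and 0.33, and -1.64 and -1.86. Each strain occupied its own range for both genes, and the snq2 deletion strain was lowest. PAB1 fell by 1.75 ± 0.11 there (3.36-fold, adjusted p = 0.000287), while its erg6 deletion value of 0.37 ± 0.11 (adjusted p = 0.0324) was lost without either array of that strain, in a fit to it alone and with array weights (0.0125 to 0.140). CDC33, the gene of eIF4E, had 0.89 and 0.75, 0.82 and 1.02, and -0.55 and -0.48. The parental and erg6 deletion arrays overlapped above 0, and their difference did not pass (0.09 ± 0.13, adjusted p = 0.570), whereas the snq2 deletion response was 1.34 ± 0.13 lower than the parental (adjusted p = 0.00179). The CDC33 fall in the snq2 deletion strain was lost without either of its arrays (0.00500 to 0.0657), and the TIF1 rise in the erg6 deletion strain in a fit to that strain alone (0.00435 to 0.0547). The TIF3 difference between erg6 deletion and parental strains, 0.86 ± 0.22, was lost without either parental array (0.00457 to 0.0983).

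The 2 inhibitors that compete with eIF4G for eIF4E were unlike each other. CAF20 had -0.96 and -0.74 in parental, -0.03 and 0.46 in erg6 deletion and -1.02 and -1.27 in snq2 deletion cells. It was thus low in parental and snq2 deletion cells and near 0 in erg6 deletion cells, with a parental value of -0.85 ± 0.15 (adjusted p = 0.00554) that was lost without parental replicate 1 (0.00170 to 0.0702). EAP1 lay between -0.40 and -0.06 on all 6 arrays and passed in no strain.

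eIF3, the scaffold of the initiation complex, did not move as a unit. Of its 6 genes, 4 fell in the snq2 deletion strain and 0 rose, 3 rose and 1 fell in the erg6 deletion strain, and 1 rose and 1 fell in the parental strain. These were 66.7%, 66.7% and 33.3% past the threshold, against 51.5%, 54.7% and 54% of all genes. PRT1, the eIF3b subunit, had -0.27 and -0.07 in parental, 0.71 and 0.70 in erg6 deletion and -0.96 and -1.12 in snq2 deletion cells. NIP1, eIF3c, had -0.47 and -0.47, 0.16 and 0.02, and -1.66 and -2.36. For both genes the snq2 deletion arrays were lowest and the erg6 deletion arrays highest, without overlap. NIP1 fell 4.02-fold in the snq2 deletion strain (-2.01 ± 0.17, adjusted p = 0.000619) and was 0.09 ± 0.17 in the erg6 deletion strain (adjusted p = 0.675). PRT1 differed by 1.74 ± 0.13 between the deletion strains (adjusted p = 0.000799).

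RPG1, eIF3a and the largest subunit, was opposite to PRT1 in the difference between the erg6 deletion and parental responses (-0.70 for RPG1, 0.87 for PRT1) and lower than parental in the snq2 deletion strain like it, with 0.54 and 0.33 in parental, -0.30 and -0.22 in erg6 deletion and -0.22 and -0.50 in snq2 deletion cells. The parental arrays were the highest, and the deletion strains overlapped. HCR1, the loosely bound eIF3j, had -1.46 and -0.87, 0.70 and 0.40, and -1.04 and -0.93, so that parental and snq2 deletion arrays overlapped well below the erg6 deletion arrays (1.72 ± 0.23 between erg6 deletion and parental, adjusted p = 0.00208). TIF34 and TIF35, which encode eIF3i and eIF3g, differed in sign in the erg6 deletion strain at 0.81 ± 0.19 (arrays at 0.50 and 1.11) and -0.57 ± 0.13, and neither passed elsewhere. Both of these calls were lost without erg6 deletion replicate 2 and in a fit to that strain alone (0.00905 to 0.0894 and 0.00954 to 0.0920). The calls of RPG1 were lost without either parental array in the parental strain (0.00954 to 0.184) and without any 1 of the parental or snq2 deletion arrays in the snq2 deletion strain (0.0265 to 0.290). The HCR1 fall in the snq2 deletion strain was lost without either array of it (0.000281 to 0.0599), and its rise in the erg6 deletion strain under 7 alternatives, among them without replicate 1 (0.0180 to 0.175).

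Genes of eIF2 and of eIF2B, its exchange factor, held opposite changes within a complex. None of these 7 rose in either deletion strain, and 4 fell in each, while in the parental strain 3 fell and 1 rose. In each strain 57.1% of them passed, near the 54% (parental), 54.7% (erg6 deletion) and 51.5% (snq2 deletion) of all genes. GCD7, eIF2B beta, had 1.55 and 1.17 in parental, -1.06 and -1.21 in erg6 deletion and 0.17 and -0.06 in snq2 deletion cells. GCD6, the catalytic eIF2B epsilon, had -1.73 and -1.69, -0.15 and -0.05, and -0.61 and -1.48. The order of the strains was thus reversed between these subunits, with GCD7 highest and GCD6 lowest in parental cells. GCD7 rose 2.56-fold in the parental strain (1.36 ± 0.13, adjusted p = 0.000696), where GCD6 fell 3.26-fold (-1.71 ± 0.20, adjusted p = 0.00149). The difference between the erg6 deletion and parental responses was -2.49 ± 0.18 for GCD7 (adjusted p = 0.000350) and 1.61 ± 0.29 for GCD6 (adjusted p = 0.00567). With quantile normalised arrays the GCD6 values were larger, at -2.63 in the parental strain and 2.58 for that difference.

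GCN3, the regulatory eIF2B alpha that senses phosphorylated eIF2, had 0.26 and 0.14 in parental, -1.10 and -1.03 in erg6 deletion and -0.90 and -0.71 in snq2 deletion cells. It was low in both deletion strains and lower than the parental response in both, with a difference of -1.26 ± 0.13 in the erg6 deletion strain (adjusted p = 0.000873) and an adjusted p of 0.00382 in the snq2 deletion strain. GCD1 and GCD2, the gamma and delta subunits, stayed between -0.59 and 0.20, and GCD2 passed in the erg6 deletion strain (-0.51 ± 0.10), a call lost in a fit to that strain alone (0.00765 to 0.0515). SUI3, the beta subunit of eIF2, had -0.91 and -1.05, -0.95 and -0.49, and -1.97 and -1.97. It was below 0 on all 6 arrays and lowest in the snq2 deletion strain (3.92-fold lower, adjusted p = 0.000304). Its erg6 deletion call was lost in a fit to that strain alone (0.00468 to 0.0610), and its difference between the snq2 deletion and parental strains, -0.99 ± 0.18, without parental replicate 1 or either snq2 deletion array (0.00310 to 0.0665). SUI2, eIF2 alpha and the target of the starvation kinase, fell in the parental (-0.74 ± 0.11, adjusted p = 0.00270) and snq2 deletion strains (-0.94 ± 0.11, adjusted p = 0.00144) and had -0.22 ± 0.11 in the erg6 deletion strain.

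None of the 4 genes for start-site choice and subunit joining rose in any strain. Of all genes, 27.3%, 23.2% and 25.3% rose in the parental, erg6 deletion and snq2 deletion strains. In the same order 50%, 25% and 75% of the 4 passed, against 54%, 54.7% and 51.5% of all genes. TIF11, eIF1A, fell in the parental (-0.83 ± 0.09, adjusted p = 0.000986) and snq2 deletion strains (-0.81 ± 0.09, adjusted p = 0.00128), with arrays at -0.80 and -0.86 and at -0.90 and -0.72, against -0.20 and -0.29 in the erg6 deletion strain. SUI1, eIF1, had -0.79 and -0.99 in the snq2 deletion strain and lay on both sides of 0 in the others. Its fall there was lost without either array (0.000535 to 0.139). TIF5, the GTPase-activating eIF5, lay between -0.67 and -0.26 on every array and passed in all 3 strains, but its parental call was lost without either parental array and with the replicate block (0.0145 to 0.240) and its snq2 deletion call without replicate 2 (0.00391 to 0.0648). FUN12, eIF5B, spread from -1.26 to 0.05 between the erg6 deletion arrays and passed nowhere.

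Among the 11 elongation genes, 7 rose and 1 fell in the erg6 deletion strain, 6 fell and 3 rose in the snq2 deletion strain, and 4 rose and 3 fell in the parental strain. These were 72.7%, 81.8% and 63.6% past the threshold, against 54.7%, 51.5% and 54% of all genes. TEF1 and TEF2, EFT1 and EFT2, and HYP2 and ANB1 enter these counts as separate genes, though uncertain as separate measurements. All of them rose in the erg6 deletion strain, where HEF3 was the only other elongation gene to do so. YEF3, the essential eEF3, had 0.51 and 0.33 in parental, -0.82 and -0.71 in erg6 deletion and -2.62 and -3.10 in snq2 deletion cells. The strains did not overlap, and the snq2 deletion arrays were far below the rest. YEF3 fell 7.24-fold there (-2.86 ± 0.13, adjusted p = 0.000168), which ranked 24 from the lowest of 6362 genes, and its difference from the parental response, -3.28 ± 0.19 (9.69-fold, adjusted p = 0.000663), ranked 11 from the lowest. Its parental value of 0.42 ± 0.13 (adjusted p = 0.0445) was lost without either parental array, with the replicate block and with control spots in the fit (0.0119 to 0.286). HEF3, a paralog of YEF3 that is little expressed in standard growth, had 0.10 and 0.12, 1.00 and 0.70, and 0.64 and 0.51. It rose in both deletion strains (0.85 ± 0.10, adjusted p = 0.00204, and 0.58 ± 0.10, adjusted p = 0.00678), the latter call being lost without snq2 deletion replicate 1. In these strains the median empty spot stood at 2.11 and 0.55, and the signal of HEF3 over background was not analysed.

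The genes of eEF1A, which delivers aminoacyl-tRNA, moved together. TEF1 had 0.34 and 0.22 in parental, 0.64 and 0.54 in erg6 deletion and -0.68 and -0.62 in snq2 deletion cells, and TEF2 had 0.96 and 0.72, 0.57 and 0.66, and -0.54 and -0.59. In both genes only the snq2 deletion arrays were below 0. The snq2 deletion response was lower than the parental by 0.93 ± 0.12 for TEF1 (adjusted p = 0.00358) and 1.41 ± 0.13 for TEF2 (adjusted p = 0.00171). EFB1, the exchange factor of eEF1A, was also lowest in the snq2 deletion strain, with 0.76 ± 0.17, 0.14 ± 0.17 and -0.84 ± 0.17 in the parental, erg6 deletion and snq2 deletion strains, the last from arrays at -0.54 and -1.14. The parental call of TEF1 was lost under 7 alternatives, among them without either parental array and without either snq2 deletion array (0.0188 to 0.276), that of EFB1 without either parental array (0.00562 to 0.123), and the snq2 deletion calls of EFB1 and TEF2 without snq2 deletion replicate 2 (0.00283 to 0.0896 and 0.00345 to 0.0625).

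The 2 genes for the gamma subunit of eEF1B were separated by strain. CAM1 had -1.51 and -1.32 in parental, 0.16 and 1.09 in erg6 deletion and -0.07 and -0.21 in snq2 deletion cells, whereas TEF4 had -0.57 and -0.33, 0.08 and 0.99, and -1.04 and -1.32. CAM1 was lowest in parental cells and TEF4 in snq2 deletion cells, and the erg6 deletion arrays were highest for both. CAM1 fell 2.67-fold in the parental strain (-1.42 ± 0.22, adjusted p = 0.00364), and TEF4 fell 2.27-fold in the snq2 deletion strain (adjusted p = 0.00812), a call lost without either array of it (0.000181 to 0.103).

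EFT1 and EFT2, which encode the translocase eEF2, rose in the erg6 deletion strain by 0.90 ± 0.10 (adjusted p = 0.00165) and 0.86 ± 0.09 (adjusted p = 0.00136). EFT1 had -0.49 and -0.63 in parental, 1.04 and 0.77 in erg6 deletion and -0.36 and -0.30 in snq2 deletion cells, and EFT2 had -0.52 and -0.57, 0.92 and 0.80, and -0.12 and -0.29. Only the erg6 deletion arrays were above 0. Their parental falls of 0.56 ± 0.10 and 0.55 ± 0.09 were both lost without parental replicate 2 (0.00234 to 0.0786 and 0.00183 to 0.0570), and the EFT1 fall in the snq2 deletion strain without any 1 of the parental or snq2 deletion arrays and with the replicate block (0.0256 to 0.208).

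HYP2 and ANB1 encode eIF5A, the hypusine-bearing factor that helps ribosomes past difficult sequences such as runs of proline, and ANB1 is known as the copy expressed when oxygen is short. HYP2 had -0.27 and -0.25 in parental, 0.94 and 0.93 in erg6 deletion and 0.63 and 0.85 in snq2 deletion cells. ANB1 had -0.01 and -0.06, 1.03 and 0.78, and 0.48 and 0.43. Both were above 0 on all 4 arrays of the deletion strains and just below 0 on the parental arrays. HYP2 differed from its parental response by 1.19 ± 0.13 in the erg6 deletion (adjusted p = 0.000955) and by 1.00 ± 0.13 in the snq2 deletion strain (adjusted p = 0.00353), and these deletion responses differed from each other by 0.19 ± 0.13 (adjusted p = 0.253). The ANB1 rise in the snq2 deletion strain was lost without either array of it (0.00723 to 0.0901).

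**Figure D3:**
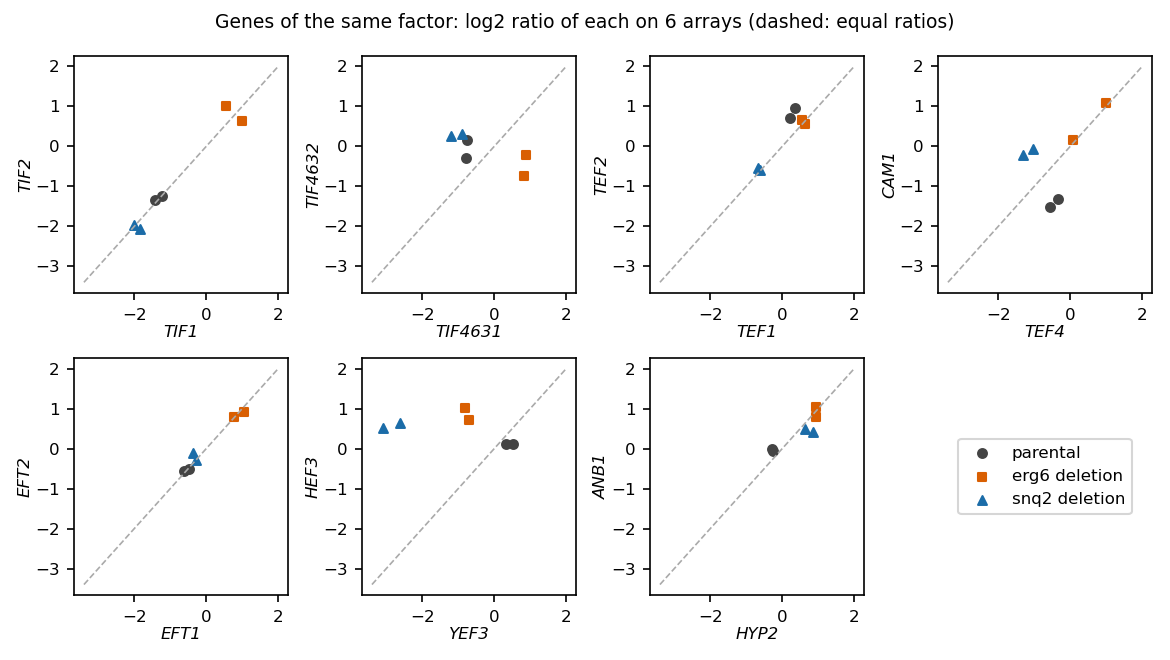
Log2 ratios on the 6 arrays for 7 pairs of genes that encode the same factor, the first gene on the horizontal and the other on the vertical axis, with a dashed line of equal ratios. Points of TIF1 and TIF2, TEF1 and TEF2, EFT1 and EFT2, and HYP2 and ANB1 lie near the line, while those of TIF4631 and TIF4632 and of YEF3 and HEF3 lie far from it.

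Pairs of genes for the same factor fell into close and distant ones. On the 6 arrays EFT1 and EFT2 differed by at most 0.25, HYP2 and ANB1 by at most 0.42, TIF1 and TIF2 by at most 0.47 and TEF1 and TEF2 by at most 0.62, with the same sign on all 6 arrays. TEF4 and CAM1 differed by up to 1.11 with the same sign on all 6. TIF4631 and TIF4632 differed by up to 1.59 and shared a sign on 1 array, and YEF3 and HEF3 differed by up to 3.61 and shared a sign on 2. TIF1 and TIF2, TEF1 and TEF2, and EFT1 and EFT2 encode identical proteins from near-identical coding sequences, and HYP2 and ANB1 are close relatives. A probe for either gene of such a pair can bind RNA of both, so the close pairs are uncertain as separate measurements, and the part of this in their likeness was not tested.

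Termination, recycling and storage factors were mixed. SUP35, the eRF3 GTPase, had -0.03 and 0.01 in parental, 0.44 and 0.91 in erg6 deletion and -0.30 and -0.61 in snq2 deletion cells. It rose in the erg6 deletion (0.67 ± 0.14, adjusted p = 0.0112) and fell in the snq2 deletion strain (-0.45 ± 0.14, adjusted p = 0.0429). The first of these calls was lost without erg6 deletion replicate 2 and in a fit to that strain alone (0.00628 to 0.0680), the other under 7 alternatives, among them without any 1 of the parental or snq2 deletion arrays (0.0157 to 0.327). SUP45, eRF1, had -0.41 and -1.20 in the snq2 deletion strain, and this call was lost without replicate 2 (0.00718 to 0.220). RLI1, the ABC-type ATPase that splits ribosomes after termination, had -1.32 and -1.43 in parental, 0.12 and 0.67 in erg6 deletion and -0.60 and -0.98 in snq2 deletion cells. The 3 strains did not overlap, and the erg6 deletion response was 1.77 ± 0.23 above the parental (adjusted p = 0.00191), while the snq2 deletion call was lost without replicate 2 (0.00157 to 0.128).

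STM1, a protein that clamps idle ribosomes and preserves them when nutrients run out, was the highest translation factor gene in both deletion strains. It had 0.40 and 0.36 in parental, 1.95 and 1.77 in erg6 deletion and 0.86 and 0.91 in snq2 deletion cells. All 6 arrays were above 0 and the strains did not overlap. STM1 rose 3.64-fold in the erg6 deletion strain (1.86 ± 0.09, adjusted p = 0.000184), which ranked 10 from the highest of 6362 genes, and 1.85-fold in the snq2 deletion strain (adjusted p = 0.000931). Its parental rise of 0.38 ± 0.09 was lost without either parental array (0.00590 to 0.130), and its difference of 0.51 ± 0.12 between snq2 deletion and parental strains without any 1 of those 4 arrays (0.0140 to 0.118).

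Other genes of the pathway, outside the 41, gave the following counts. Of 11 further initiation factors and RNA-binding helpers, 5 fell and 0 rose in parental, 3 rose and 4 fell in erg6 deletion and 2 rose and 5 fell in snq2 deletion cells. Their shares past the threshold were 45.5%, 63.6% and 63.6%, against 54%, 54.7% and 51.5% of all genes. DED1, the helicase that works beside eIF4A, had -1.57 and -1.46, -1.47 and -1.65, and -3.03 and -3.23. It fell in every strain, with the snq2 deletion arrays lowest, and its difference between the erg6 deletion and parental responses did not pass (-0.05, adjusted p = 0.785). Of 7 genes of the GCN2 and GCN4 pathway, 3 fell and 1 rose in parental, 2 rose and 1 fell in erg6 deletion and 2 fell in snq2 deletion cells. Their shares past the threshold, 57.1%, 42.9% and 28.6%, were near or below the same backgrounds. GCN4, the activator whose mRNA is translated when eIF2B is inhibited, had -1.13 and -1.28, 1.40 and 1.34, and 0.06 and 0.19, so it fell in parental and rose in erg6 deletion cells. Of 14 recycling, rescue and ABC-F genes, 5 fell and 1 rose in the parental strain (42.9% past the threshold), 3 rose and 3 fell in the erg6 deletion strain (42.9%), and 7 fell and 1 rose in the snq2 deletion strain (57.1%, near the 51.5% of all genes). There NEW1, a relative of YEF3, stood at -2.87 ± 0.15 (adjusted p = 0.000218), the ABC-F gene ARB1 at -2.11 ± 0.09 and TMA19 at -2.66 ± 0.10 (adjusted p = 0.000166 each).

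Of the 136 cytosolic ribosomal protein genes measured, 109 rose and 3 fell in the erg6 deletion strain, 7 rose and 72 fell in the snq2 deletion strain, and 63 rose and 26 fell in the parental strain. These were 82.4%, 58.1% and 65.4% of them past the threshold, against 54.7%, 51.5% and 54% of all genes, and their medians were 1.03, -0.34 and 0.25. The translation factor genes had 0.37, -0.65 and -0.23 in the same order, below the ribosomal proteins in each strain, and the gap itself was not tested. In the differences between strains the medians were 0.73 for ribosomal proteins and 0.58 for translation factors (erg6 deletion minus parental), -0.60 and -0.30 (snq2 deletion minus parental), and 1.38 and 0.98 (erg6 minus snq2 deletion).

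**Figure D4:**
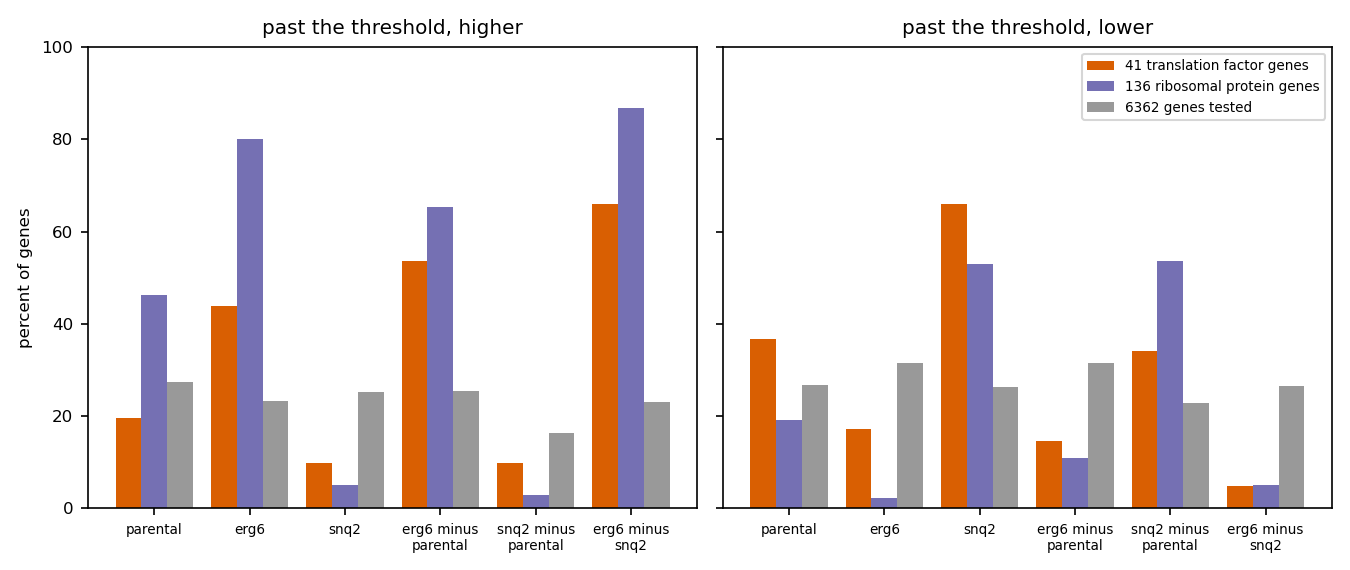
Percent of the 41 translation factor genes, the 136 ribosomal protein genes and all 6362 genes past the threshold, higher on the left and lower on the right, in the 3 responses and the 3 differences between strains (erg6 and snq2 stand for the deletion strains). The share of lower translation factor genes peaks at 65.9% in the snq2 deletion response, and the share of higher ones at 65.9% in the difference between the deletion strains.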

How the data were processed

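The scanner was a GenePix 4000B, per the labels' protocols. Each array came with a signed number for every feature, deposited by the authors and taken here to be a log2 ratio. How background was corrected, how arrays were normalized and which spots were filtered is not stated in the labels, nor are base or direction of the ratios. Between any 2 arrays the lowest correlation over all features was 0.14. Signal over background was not analysed here, and precision is limited by the 6 arrays.

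After the 683 control spots were left out, 6362 genes remained. RefSeq's gene table (assembly R64), used for names only, held locus tags for 5826 of them. A model with a mean for each strain was fitted over the 6 arrays with lmFit and eBayes of limma 3.58.1 under R 4.3.3 (residual degrees of freedom 3, prior 2.45). Benjamini-Hochberg adjustment ran over the 6362 genes within each of 6 comparisons, and the threshold was 0.05. Errors after ± are standard errors of this model, which pool the spread over strains, with 2 arrays a strain. P-values measure only the spread between these arrays. Pass rates of control spots came from a fit that kept them. Leaving out an array leaves its partner's value as the mean of that strain.

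The 41 genes and the 7 related lists were chosen with earlier results of these data known. All 41 are named, with up to 3 genes of a related list that had the smallest p in the response described. The method was tested on simulated data, but no outcome of that test is given here. Alternatives were 15 other fits and 2 other call rules, and ranges in brackets after a lost call are its adjusted p over those 15. Differences between replicates correlated between strains at 0.095, -0.042 and -0.0020, so the ratios gave little sign that replicate numbers pair the arrays. An effect common to both channels of an array cancels in its ratio, so these values cannot exclude pairing.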

Additional observations from a re-analysis of the deposited data

Results flagged for a closer look

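Responses that passed in opposite directions in 2 strains, with the difference itself past the threshold and all 3 calls kept under each of the 15 other fits, were found for 6 translation factor genes. The rule was met by 7.32% of the 41 genes for the erg6 deletion minus parental difference, against 5.91% of all genes, and by 12.2% for the erg6 minus snq2 deletion difference, against 2.56%. For the erg6 deletion minus the parental response the difference was 2.11 for TIF2 (eIF4A), 1.62 for TIF4631 (eIF4G) and -2.49 for GCD7 (eIF2B beta). Between the erg6 and snq2 deletion responses it was 2.84 for TIF2, 1.90 for TIF4631, 2.41 for TIF3 (eIF4B), 1.74 for PRT1 (eIF3b) and 1.24 for TEF1 (eEF1A). Of these, only the GCD7 difference lay outside the central 95% of the control spots, which ran from -2.21 to 3.19 for the erg6 deletion minus the parental response. For the erg6 minus the snq2 deletion response they ran from -1.56 to 3.18, and all the differences given above for it lay within that range. TIF2 has a near-identical partner, TIF1, whose differences were 2.09 and 2.68. TEF1 likewise has TEF2, whose difference between the erg6 and snq2 deletion responses was 1.18.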

How the results depend on the processing

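No translation factor call changed direction under the 15 other fits, run for all 41 genes and 6 comparisons. Many of these fits could not change a direction. Fits with the replicate block, array weights or control spots, or to the strains compared alone, leave the strain means as they are. Leaving out an array of another strain does so too. Direction could change only when arrays were centred, rescaled or quantile normalised, or when an array of a compared strain was left out. The number of genes past the threshold was 23, 25 and 31 in the parental, erg6 deletion and snq2 deletion responses, and 28, 18 and 29 for the erg6 deletion minus parental, snq2 deletion minus parental and erg6 minus snq2 deletion differences. In the same order, leaving out 1 array at a time gave 15 to 24, 23 to 28, 18 to 32, 20 to 29, 12 to 25 and 20 to 29. With the replicate block the counts were 20, 24, 29, 28, 18 and 26, although the ratios gave little sign that the numbers pair the arrays. The remaining fits gave 22 to 25, 17 to 27, 30 to 32, 27 to 29, 18 to 25 and 26 to 30, the 17 coming from the fit to the erg6 deletion arrays alone. Requiring also a value outside the central 95% of Blank and empty spots left 3, 0, 6, 1, 1 and 0 genes, and requiring also a change of at least 1.5-fold left 16, 21, 23, 26, 16 and 27. Calls kept under all 15 fits numbered 14 of 23, 17 of 25, 17 of 31, 18 of 28, 12 of 18 and 19 of 29. Over all genes, the parental count went from 3434 to 1914 without parental replicate 1, the erg6 deletion count from 3478 to 1946 in the fit to that strain alone and the snq2 deletion count from 3276 to 1672 without snq2 deletion replicate 2. For the differences it went from 2495 to 1202 (snq2 deletion minus parental, without parental replicate 1) and from 3153 to 1952 (erg6 minus snq2 deletion, without snq2 deletion replicate 2). Those fits hold fewer arrays, and the cause of single lost calls was not tested.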

Other observations

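Of 16 genes for enzymes that modify elongation factors, 7 rose and 2 fell in the parental strain, 3 rose and 5 fell in the erg6 deletion and 2 rose and 4 fell in the snq2 deletion strain. The shares past the threshold, 56.2%, 50% and 37.5%, were near or below the 54%, 54.7% and 51.5% of all genes. In the parental strain EFM5 and EFM3, methyltransferases of eEF1A and eEF2, stood at 1.43 ± 0.08 (adjusted p = 0.000208) and 1.58 ± 0.13 (adjusted p = 0.000447). LIA1, the hydroxylase that completes hypusine on eIF5A, had 0.35 and -0.05 in the parental, 1.19 and 0.94 in the erg6 deletion and -1.70 and -1.83 in the snq2 deletion strain. HYP2 and ANB1, the genes of its substrate, were above 0 on those snq2 deletion arrays. RRT2, a gene of diphthamide synthesis on eEF2, had -4.11 and -4.46 on the erg6 deletion arrays and ranked 10 from the lowest of 6362 genes, against -0.76 and -0.09 in the parental strain.

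Chaperones bound to the ribosome fell in the snq2 deletion strain in 3 of 7 cases and rose in 1, and 4 rose and 1 fell in each of the other strains. That is 57.1% past the threshold in the snq2 deletion strain and 71.4% in each of the others, against 51.5% of all genes, and 54% (parental) and 54.7% (erg6 deletion). SSB2, an Hsp70 that folds nascent chains, had 0.78 and 0.69 in the parental, 0.31 and 0.10 in the erg6 deletion and -1.41 and -1.64 in the snq2 deletion strain. Of 8 mitochondrial translation factors, 6 fell and 0 rose in the erg6 deletion strain. In the parental strain 2 rose and 1 fell, and 2 rose in the snq2 deletion strain. These were 75%, 37.5% and 25% past the threshold in the same order. Of the erg6 deletion falls, only those of MEF1 and GUF1 were kept under all alternatives to the fit. That of IFM1 was lost under 8 alternatives. Those of AIM23 and TUF1 were lost under 2 each, without erg6 deletion replicate 2 and in a fit to that strain alone. RRF1, the mitochondrial ribosome recycling factor, had 2.65 and 2.32 in the parental, -0.30 and -0.41 in the erg6 deletion and 0.90 and 0.91 in the snq2 deletion strain. The fall of RRF1 in the erg6 deletion strain (-0.36 ± 0.11, adjusted p = 0.0354) was lost under 8 alternatives, among them without any 1 of the erg6 or snq2 deletion arrays (0.0305 to 0.163).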
